A study of Mus musculus with 4 samples.

Results

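Heparan sulfate is a long sulfated sugar chain that cells carry on core proteins, among them the syndecans and glypicans of the cell surface. The EXT polymerases build the chain, N-deacetylase/N-sulfotransferases and the 2-O-, 6-O- and 3-O-sulfotransferases place sulfate groups on it, and the endosulfatases Sulf1 and Sulf2 remove 6-O-sulfate at the cell surface. The sulfation pattern sets how well growth factors such as FGF2 and HGF bind and signal, and in muscle stem cells syndecans 3 and 4 and the endosulfatases are known regulators of FGF signalling and regeneration. The genes described here are 10 of this pathway: Ext1, Ndst1, Hs2st1, Hs6st1, Hs3st3a1, Sulf1, Sulf2, Sdc3, Sdc4 and Gpc1. They were taken by gene name from a deposited table of accessible regions. Of the 10 genes, 6 have a linked region, in 7 of the 35019 regions of the table, and Hs2st1, Ndst1, Sulf2 and Sdc3 have 0. The 10 genes were chosen with earlier results of the same comparison known, the low Hs3st3a1 promoter in mdx among them, so the differences of these 7 regions are a description. Where the side of a threshold is given for them, it places them among all regions and is no test of them.

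The assay was ATAC-seq, in which the Tn5 transposase cuts and tags open DNA, and the cells were quiescent satellite cells, the resting stem cells of skeletal muscle. The cells were purified by flow cytometry from mdx mice, which carry a mutation of the dystrophin gene Dmd and model Duchenne muscular dystrophy, and from wild type mice. The sources used here give neither the sorting markers nor the strain and age of the mice. The submitters' design text speaks of 3 mice in a condition, whereas 2 libraries of each group, numbered 1 and 2, were analysed here. It is not stated whether each library is 1 animal, so a test measures how far these libraries spread, and that spread may be technical. In bulk material, a smaller share of cells with a region open and less opening in each cell cannot be told apart.

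Values are scaled reads per region, the authors' own scaling, and coordinates are mm10 as deposited. The reads recovered in all listed regions ran from 3208475 to 3607633 in mdx and from 3693096 to 8165826 in wild type. Promoter regions, those reaching within 1 kb of the start of their linked gene, held 52.76% and 57.21% of the nuclear signal in mdx and 64.15% and 61.09% in wild type. Other regions are called distal. Of satellite cell markers 7 of 10, Pax7 and Myf5 among them, had a promoter region, without Vcam1, Cdh15 and Itga7. The summed level of these promoter regions was 1411 to 1413 in mdx and 1534 to 1651 in wild type. Of fibro-adipogenic progenitor markers 6 of 10 had one (396 to 422 in mdx, 308 to 317 in wild type), without Pdgfra and Ly6a. Of endothelial markers 1 of 8 had one (131 to 152 and 131 to 146), without Pecam1 and Cdh5, and of mural cell markers 4 of 7 (450 to 504 and 501 to 503). Of myofibre markers 2 of 8 had one (180 to 184 in mdx, 68 to 104 in wild type), without Ckm and Acta1. Of these 2 regions 1 passed as higher in mdx (limma, adjusted p under 0.05), and no marker region of the other lists passed. Over all tested promoter regions 0.691% passed as higher and 1.73% as lower. Immune markers (0 of 9, Ptprc included) and Schwann cell markers (0 of 5) had none. The promoter share and the satellite cell, progenitor and myofibre sums thus did not overlap between the groups, and their part in the results below was not tested. The median log2 difference, mdx minus wild type, of the satellite cell marker promoters was -0.21, near the -0.25 over all promoter regions. It was 0.44 for the progenitor and 1.17 for the myofibre marker promoters.

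Promoter sequences are shown for Hs3st3a1, with the largest difference of the members, and its paralogue Hs3st3b1 on the same chromosome, with a difference near 0. Those of the members Hs6st1 and Sdc4 are shown as well. These 4 sequences are a description, and their part in the results was not tested. They are RefSeq windows of build GRCm38.p6, from 250 bases before to 50 bases after the start, 5′ to 3′ on the gene's strand, and each of these windows lies whole inside the accessible region linked to that gene. Capitals mark 3 motifs, each searched on either strand. The first is the GC box with the letters GGGCGG. The next is the box named for its letters, CCAAT. The last is the cyclic AMP response element with the letters TGACGTCA. RefSeq windows were found for 6 of the 10 members, and not for Ndst1, Ext1, Sulf1 and Gpc1.
Hs3st3a1, chr11:64435082-64435381, plus strand: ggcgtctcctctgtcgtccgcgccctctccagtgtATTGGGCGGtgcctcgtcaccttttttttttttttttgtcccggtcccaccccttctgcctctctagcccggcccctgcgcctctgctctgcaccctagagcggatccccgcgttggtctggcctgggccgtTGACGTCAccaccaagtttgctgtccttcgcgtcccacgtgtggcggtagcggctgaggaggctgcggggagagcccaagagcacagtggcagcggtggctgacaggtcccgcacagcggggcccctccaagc
Hs3st3b1, chr11:63922235-63922534, minus strand: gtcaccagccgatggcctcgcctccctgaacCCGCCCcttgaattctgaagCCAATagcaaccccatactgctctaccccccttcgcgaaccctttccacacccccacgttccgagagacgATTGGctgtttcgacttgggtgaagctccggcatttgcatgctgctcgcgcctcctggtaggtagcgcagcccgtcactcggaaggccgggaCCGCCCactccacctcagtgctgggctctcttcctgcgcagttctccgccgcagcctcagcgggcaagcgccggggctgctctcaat
Hs6st1, chr1:36068150-36068449, plus strand: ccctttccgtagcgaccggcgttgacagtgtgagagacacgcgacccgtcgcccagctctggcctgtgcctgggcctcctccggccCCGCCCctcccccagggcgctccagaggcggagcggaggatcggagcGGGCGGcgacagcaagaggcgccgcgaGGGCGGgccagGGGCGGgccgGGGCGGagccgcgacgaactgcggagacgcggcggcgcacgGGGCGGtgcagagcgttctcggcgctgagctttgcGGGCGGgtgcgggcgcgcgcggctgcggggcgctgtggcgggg
Sdc4, chr2:164443139-164443438, minus strand: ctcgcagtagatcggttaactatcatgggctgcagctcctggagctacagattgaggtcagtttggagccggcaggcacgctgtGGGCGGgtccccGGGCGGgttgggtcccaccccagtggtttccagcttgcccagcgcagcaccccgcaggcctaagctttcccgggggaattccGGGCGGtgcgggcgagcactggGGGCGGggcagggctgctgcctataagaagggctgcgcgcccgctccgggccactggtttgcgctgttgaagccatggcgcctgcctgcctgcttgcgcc

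The 4 windows differ in letters. The Hs3st3a1 window holds 1 GC box, which overlaps a CCAAT box, and 1 cyclic AMP response element whose first base lies 83 bases before the start. Among 32851 RefSeq windows of this length, 1.8% hold that element, 35.7% a GC box and 37.4% a CCAAT box. The Hs3st3b1 window holds 2 GC boxes and 2 CCAAT boxes. Hs6st1 holds 7 GC boxes and Sdc4 holds 4, and neither holds a CCAAT box. Of the 4 windows, only Hs3st3a1 holds the cyclic AMP response element. All 4 hold more CpG than the median of 7 over all windows, with 23 in Hs3st3a1, 23 in Hs3st3b1, 47 in Hs6st1 and 22 in Sdc4. Of all windows, 78.5% hold fewer than the 2 paralogues, 98.6% fewer than Hs6st1 and 76.9% fewer than Sdc4. The AP-1 site (TGANTCA), the E-box bound by MyoD (CAGCTG), the NRF1 site, the ETS site (CCGGAAGT) and the RUNX site (TGTGGT), searched on both strands, matched 0 times in these windows; over all windows they match in 7.8%, 16.3%, 1.0%, 3.9% and 16.8%. The general E-box (CANNTG, in 72.3% of all windows) matched once each in Hs3st3a1 and Hs3st3b1. These are letter matches, not binding sites. The 2 paralogue windows share no run of letters longer than 10 bases on either strand.

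Within wild type cells the members' promoters spanned a wide range of accessibility, compared here as scaled reads per kb of region. Ext1, which encodes a subunit of the chain polymerase, was the most open at 1325 and 1337 per kb in the 2 libraries, above 99.0% of all tested promoter regions by its mean. Sulf1 followed at 725.1 and 931.3 per kb, and Hs6st1, a 6-O-sulfotransferase, at 472.2 and 650.9. The ranges of these 3 genes did not overlap. The remaining promoters lay close together, with Sdc4 (293.3 to 355.8 per kb), Gpc1 (258.5 to 310.5) and Hs3st3a1 (214.1 to 297.2) each overlapping its neighbour in the order. The median of all tested promoter regions in wild type was 234.6 per kb, so all 6 members lay above it by their means. In mdx cells the order was the same. Hs3st3a1, at 56.34 and 102.8 per kb, then lay below Gpc1 (246.2 and 277.7) with no overlap. By its mean level, the Hs3st3a1 promoter region lay above 54.3% of tested promoter regions in wild type and above 10.6% in mdx.

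Hs3st3a1 encodes a Golgi 3-O-sulfotransferase that makes a rare, late modification of the chain. Its promoter region lies on chromosome 11 from 64434960 to 64435670, with its centre 17 bp from the gene's start. In mdx it held 73 (replicate 1) and 40 (replicate 2) scaled reads, and in wild type 211 and 152, from 53, 34, 173 and 309 recovered reads. Both mdx libraries lay below both wild type libraries with a wide gap, and the libraries of each group also differed from each other. The log2 difference, mdx minus wild type, was -1.71 with SE 0.33, or 3.27-fold lower on the scale of log2(scaled reads + 1). Leaving out mdx replicate 1 gave -2.14, and leaving out the other mdx library gave -1.28. A cyclic AMP response element and an overlapping pair of CCAAT and GC boxes lie in this region, as shown above. Whether these letters bear on the difference was not tested.

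The paralogue Hs3st3b1 encodes an enzyme of the same 3-O-sulfotransferase subfamily, and its start lies 513 kb from that of Hs3st3a1. Its promoter region, on chromosome 11 from 63922126 to 63922611, held 471 and 467 in mdx and 514 and 456 in wild type, a log2 difference of -0.05 with SE 0.17 (limma, adjusted p = 0.9). The groups overlapped, and this promoter was the more open of the pair in every library. A second linked region of Hs3st3b1, 3069 bp from its start by its centre, held 152 and 162 in mdx and 161 and 144 in wild type (0.04, SE 0.23). Within 500 kb of the Hs3st3a1 start the table holds 3 other regions, all on the side of Hs3st3b1, and the nearest is the Cox10 promoter at a distance of 356 kb. That region held 146 and 150 in mdx and 181 and 126 in wild type. The 3 regions had log2 differences from -0.03 to 0.45, and 0 passed the test.

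**Figure D1:**
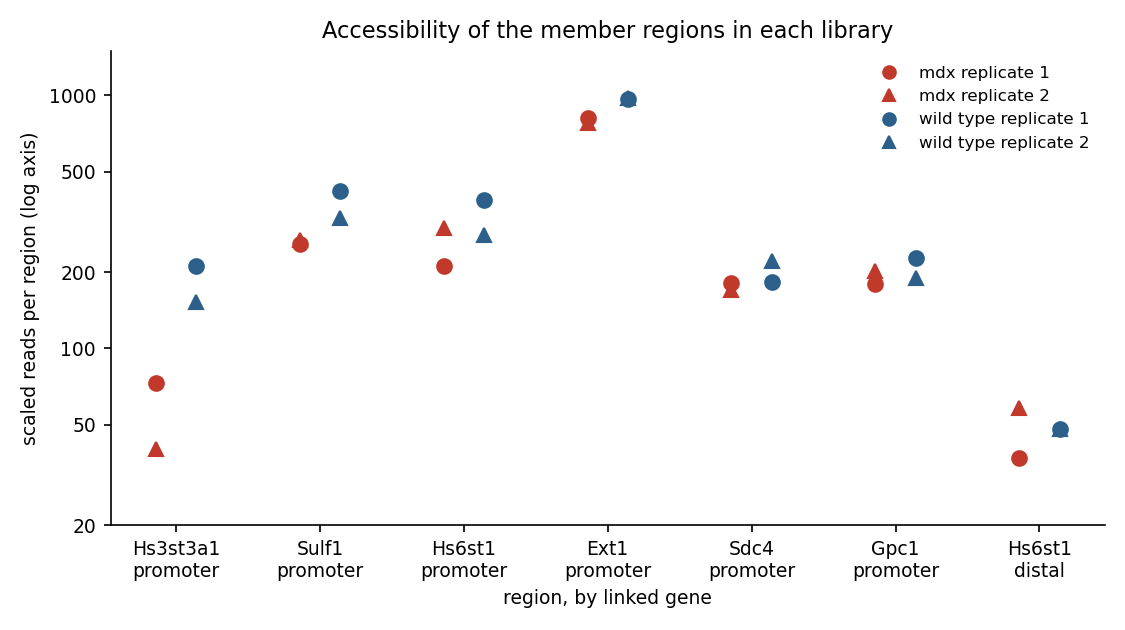
Scaled reads (vertical log axis) in the 7 regions linked to a member gene (horizontal axis), with 1 point per library, mdx in red and wild type in blue, circles for replicate 1 and triangles for replicate 2. In Hs3st3a1 the mdx points (73 and 40) lie far below the wild type points (211 and 152), and in the other regions the groups lie close together or overlap.

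The other enzymes of chain synthesis and modification with a linked region showed smaller differences. The Ext1 promoter, on chromosome 15 from 53345826 to 53346553, had mdx values of 815 and 776 against 963 and 972 in wild type. The groups did not overlap, the libraries of a group agreed closely, and the log2 difference was -0.28 with SE 0.14, near the median of -0.25 over all promoter regions. The Hs6st1 promoter, on chromosome 1 from 36068127 to 36068720, held 211 and 299 in mdx and 386 and 280 in wild type. Here the groups overlapped, since mdx replicate 2 lay above wild type replicate 2, and the log2 difference was -0.39 with SE 0.23. A weak distal region 3322 bp from the Hs6st1 start by its centre, on chromosome 1 from 36065003 to 36065153, held 37 and 58 in mdx and 48 and 48 in wild type. Its log2 difference was -0.05 with SE 0.36, with overlapping groups.

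Sulf1, the endosulfatase that trims 6-O-sulfate outside the cell, had the second largest difference among the members. Its promoter, on chromosome 1 from 12692219 to 12692670, held 258 and 267 in mdx and 420 and 327 in wild type. Both mdx libraries lay below both wild type libraries, and the log2 difference was -0.50 with SE 0.20.

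Among the member promoters, those of the core proteins had the smallest differences. Sdc4 encodes syndecan-4, a transmembrane core protein that takes part in FGF signalling and adhesion. Its promoter, on chromosome 2 from 164442816 to 164443440, held 182 and 170 in mdx and 183 and 222 in wild type. The groups were separated by only 1 scaled read, and the log2 difference was -0.20 with SE 0.22. Gpc1 encodes glypican-1, a core protein held in the membrane by a lipid anchor. Its promoter, on chromosome 1 from 92831207 to 92831938, held 180 and 203 in mdx and 227 and 189 in wild type, a log2 difference of -0.12 with SE 0.22 and overlapping groups.

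The member promoters other than Hs3st3a1 had differences from -0.50 (Sulf1) to -0.12 (Gpc1), around the median of all promoter regions. Of the 7 linked regions, 1 (the Hs3st3a1 promoter) lay past an adjusted p of 0.05 as lower in the limma fit over 33161 regions, 0 as higher, and 6 did not. Over all tested regions 4.18% passed by that rule, 0.881% as lower and 3.3% as higher. Over the 11292 promoter regions 2.42% passed, 1.73% as lower and 0.691% as higher. The count for the members carries no weight of its own, since they were chosen knowing this comparison. In 4 of the 6 member promoters (Hs3st3a1, Sulf1, Ext1 and Sdc4) both mdx libraries lay below both wild type libraries, which holds for 43.5% of all tested promoter regions. The median log2 difference was -0.33 over the 6 promoters and -0.25 over all promoter regions. All 7 differences were below 0 with the deposited scaling. With promoter medians set equal over the libraries, those of Gpc1 (0.08), Sdc4 (0.00, just above 0) and the distal Hs6st1 region (0.15) turned, and after cyclic loess that of Ext1 (0.02) turned. These scalings moved the median of all promoter regions to -0.05 and -0.21. Distal medians set equal moved it to -0.58.

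**Figure D2:**
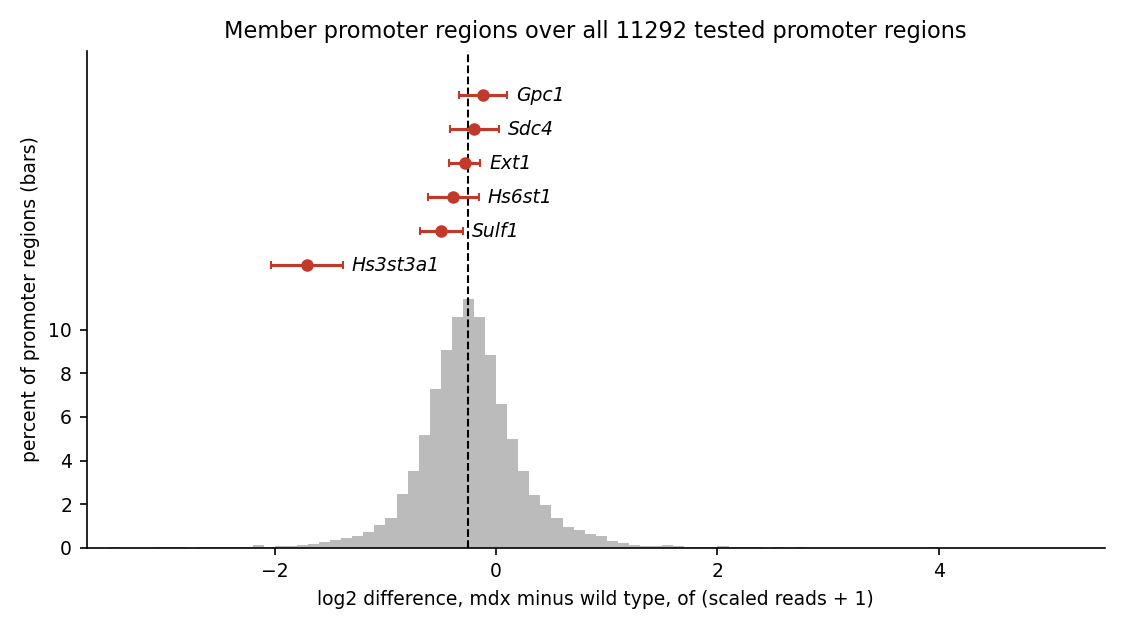
Grey bars give the percent of the 11292 tested promoter regions (vertical axis) by log2 difference, mdx minus wild type (horizontal axis), with a dashed line at their median of -0.25. Red points with bars of 1 SE give the 6 member promoters: Hs3st3a1 lies in the lower tail at -1.71, and the other 5 lie near the centre, between -0.50 and -0.12.

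Of the 4 members with no linked row, all but Sulf2 still have a region at or in their gene. The start of Hs2st1, the single 2-O-sulfotransferase, lies inside a region on chromosome 3 from 144569817 to 144570912 that the authors linked to Selenof, the neighbour transcribed in the other direction. That shared region held 596 and 754 in mdx and 1088 and 840 in wild type, without overlap. Its log2 difference was -0.51 with SE 0.17, and it did not pass (limma, adjusted p = 0.108). Accessibility there cannot be assigned to Hs2st1 or Selenof. At the RefSeq starts of Sulf2 and Sdc3 the table lists no region within 1 kb, and Sulf2 has 0 unlinked regions in its gene. Ndst1, the N-deacetylase/N-sulfotransferase that starts chain modification, has 5 unlinked regions in its gene on chromosome 18. The one with the largest difference among them held 53 and 49 in mdx and 98 and 67 in wild type, without overlap, and did not pass (log2 difference -0.66, SE 0.32).

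Along the members' gene bodies, 27 regions with no deposited gene overlap a member by RefSeq position, and these were not picked by gene name. Of the 26 tested, 0 were higher and 1 was lower (limma, adjusted p under 0.05), against 4.65% and 0.444% of all distal regions (5.09% in either direction), and 4 (15.4%) had an unadjusted p under 0.05, against 24.0% of all distal regions. Their median log2 difference was 0.15, against 0.19 over all distal regions, with 15 above 0 and 11 below. By gene, 8 lie in Ext1, 8 in Sulf1 (7 tested), 5 in Ndst1, 3 in Hs2st1, and 1 each in Hs6st1, Sdc3 and Sdc4. Whether they are exonic or intronic was not analysed here.

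The region that fell lies in Ext1, 264 kb into the gene, on chromosome 15 from 53081544 to 53081890. Its mdx values were 1 and 10 and its wild type values 33 and 42, from 1, 9, 27 and 85 recovered reads. Both mdx libraries were near the floor and both wild type libraries were low but well above it. The log2 difference was -3.03 with SE 0.76 (limma, adjusted p = 0.046). Leaving out mdx replicate 1 gave -1.80 and leaving out the other mdx library gave -4.26, and the call ended with no filter on low values (adjusted p = 0.0875), a pseudocount of 0.1 (0.0718) or promoter medians set equal (0.0503). Over the 11 alternatives that kept all libraries and tested it, its adjusted p ran from 0.00102 to 0.0875. The other 7 Ext1 regions did not pass. In 4 of them both mdx libraries lay above both wild type libraries, which holds for 35.3% of all distal regions. An example is the region 192 kb into the gene, with 55 and 50 in mdx and 16 and 41 in wild type. Among the 26 tested unlinked regions of all members, both mdx libraries lay above both wild type libraries in 8. They lay below both in 4, against 16.8% of all distal regions.

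Some internal regions were about as open per kb as their gene's promoter, or more open. In Sulf1 a region 26.1 kb into the gene, on chromosome 1 from 12718146 to 12718696, held 477 and 381 in mdx and 346 and 389 in wild type. Per kb it reached 867.3 and 692.7 in mdx, above the Sulf1 promoter's 572.1 to 592.0 there, and 629.1 and 707.3 in wild type, below that promoter's 725.1 to 931.3. Its log2 difference was 0.22 (SE 0.19), and whether region and promoter differ in their change was not tested. A second Sulf1 region, 84.8 kb into the gene, held 58 and 41 in mdx and 24 and 26 in wild type, a log2 difference of 0.94 with SE 0.39 (limma, adjusted p = 0.179). In Sdc4 a region 10.2 kb into the gene held 470 and 357 in mdx and 385 and 469 in wild type, and per kb it exceeded the Sdc4 promoter in all 4 libraries. In Hs2st1 a region 63.8 kb into the gene, on chromosome 3 from 144506178 to 144506719, held 236 and 157 in mdx and 107 and 147 in wild type, a log2 difference of 0.61 with SE 0.27 (limma, adjusted p = 0.195). The region in Sdc3, syndecan-3, held 53 and 44 in mdx and 21 and 36 in wild type, with no overlap, and did not pass (0.79, SE 0.41).

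**Figure D3:**
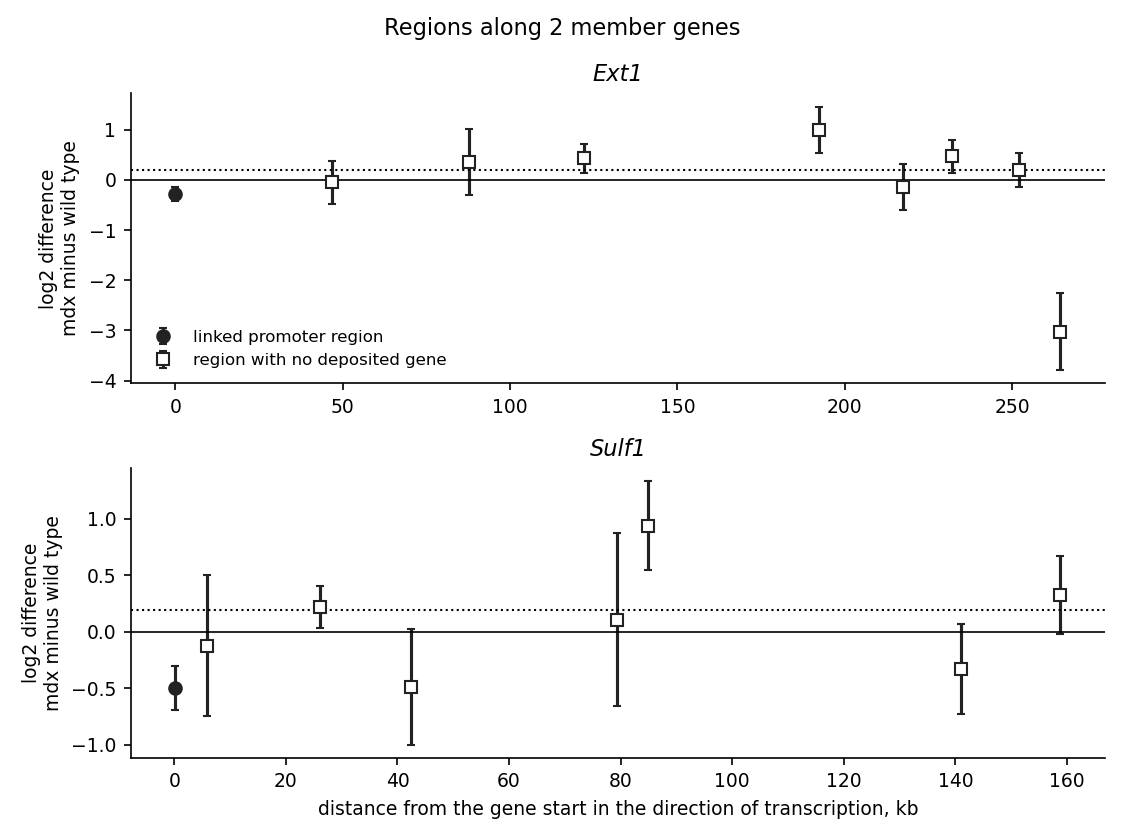
Log2 difference, mdx minus wild type, with bars of 1 SE (vertical axis), of each tested region along Ext1 (top) and Sulf1 (bottom) by distance from the gene start in kb (horizontal axis); filled circles are the linked promoter regions, open squares regions with no deposited gene, and the dotted line is the median of all distal regions at 0.19. The Ext1 region at 264 kb lies at -3.03, apart from the other regions of both genes.

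The wider pathway was read from a list of 49 other heparan sulfate genes, of which 38 had 43 linked regions, 41 of them promoters. The promoters of Xylt1 and Fam20b fell in mdx, 0 regions rose, and 41 regions did not pass. Both were among the 41 promoters, against 1.73% lower over all promoter regions and 0.881% over all tested regions. The list was drawn up with earlier results of these data known, so this count carries no weight of its own. An unadjusted p under 0.05 was found for 7 of the 43 regions (16.3%), against 21.0% of all promoter regions and 23.0% of all tested regions. The median log2 difference of the 41 promoters was -0.26, against -0.25 over all promoters, and 36 of the 41 were below 0, against 74.6% of all promoter regions. Both promoters that fell belong to synthesis of the linker, the short sugar that joins the chain to its core protein and that heparan sulfate shares with chondroitin sulfate.

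Xylt1 encodes a xylosyltransferase that adds the first sugar of the linker to the core protein. Its promoter, on chromosome 7 from 117380869 to 117381454, held 58 and 37 in mdx and 133 and 117 in wild type. The groups were well apart, and the log2 difference was -1.41 with SE 0.31 (limma, adjusted p = 0.0302, and 0.000757 to 0.0611 over the 12 alternatives that kept all libraries). The call ended with promoter medians set equal (0.0503) and with no filter on low values (0.0611). Fam20b encodes the kinase that phosphorylates the linker xylose. Its promoter, on chromosome 1 from 156718500 to 156719396, held 387 and 449 in mdx and 790 and 621 in wild type, without overlap. The log2 difference was -0.75 with SE 0.18 (limma, adjusted p = 0.0374, and 0.000129 to 0.0697 over the alternatives), and the call ended with no filter (0.0697). The other 3 linker regions, of Xylt2, Pxylp1 and B3gat3, did not pass.

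Among chain modification genes 11 regions were tested and 0 passed, with a median of -0.32. Hs6st2, a second 6-O-sulfotransferase, had 2 promoter regions, and the one farther from its start held 25 and 66 in mdx and 131 and 77 in wild type (log2 difference -1.28, SE 0.44, limma, adjusted p = 0.108). It passed as lower in 5 of 11 alternatives, the range being 0.00367 to 0.165. Its log2 difference ranged from -1.96 to -0.60 when single libraries were left out. The nearer Hs6st2 region held 73 and 60 in mdx and 82 and 84 in wild type and did not pass. Among 3-O-sulfotransferases other than the Hs3st3a1 and Hs3st3b1 pair, Hs3st4 was at -0.60 (22 and 26 in mdx, 33 and 41 in wild type). Hs3st5 was near the floor at 3 and 7 in mdx and 11 and 13 in wild type. At the RefSeq start of Hs3st1, which has no linked row, an unlinked region held 12 and 19 in mdx and 70 and 35 in wild type, without overlap (-1.65, SE 0.48, limma, adjusted p = 0.0707). Ndst4, an N-deacetylase/N-sulfotransferase, lay the other way with 79 and 99 in mdx and 60 and 62 in wild type (0.53, SE 0.30, limma, adjusted p = 0.309).

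Precursor supply had 6 regions and 0 passed. Ugdh, which makes the UDP-glucuronate used for the chain, held 350 and 479 in mdx and 710 and 549 in wild type (-0.61, SE 0.20, limma, adjusted p = 0.0956). It passed as lower in 3 of 12 alternatives, which ran from 0.00193 to 0.164. Of 10 core protein regions 0 passed, 4 of them with both mdx libraries above both wild type libraries. These 4 were the Gpc6 promoter and a distal Gpc6 region, Sdc1 and Gpc3. The distal Gpc6 region, on chromosome 14 from 116926448 to 116927125, held 246 and 213 in mdx and 164 and 147 in wild type (0.56, SE 0.22, limma, adjusted p = 0.153). Sdc1, syndecan-1, held 126 and 144 in mdx and 117 and 85 in wild type (0.43, SE 0.27, limma, adjusted p = 0.361). Gpc4 lay the other way, at 191 and 232 in mdx and 352 and 259 in wild type (-0.52, SE 0.22, limma, adjusted p = 0.182). Both mdx libraries being above both wild type libraries holds for 10.4% of all promoter regions and 35.3% of all distal regions. Among the 41 promoters of the whole list it holds for 4. In 15 of the 41 both mdx libraries lay below both wild type libraries, against 43.5% of all promoter regions. The 7 degradation regions and the 4 of chain initiation and polymerisation, Ext2 and Extl3 among them, included 0 that passed. Regions within 1 kb of the starts of Papss2 (0.03), Idua (0.09), Arsg (0.48) and B3galt6 (-0.23), which have no linked row, had overlapping groups. None of them passed. The authors linked those at Idua and B3galt6 to Dgkq and Sdf4.

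**Figure D4:**
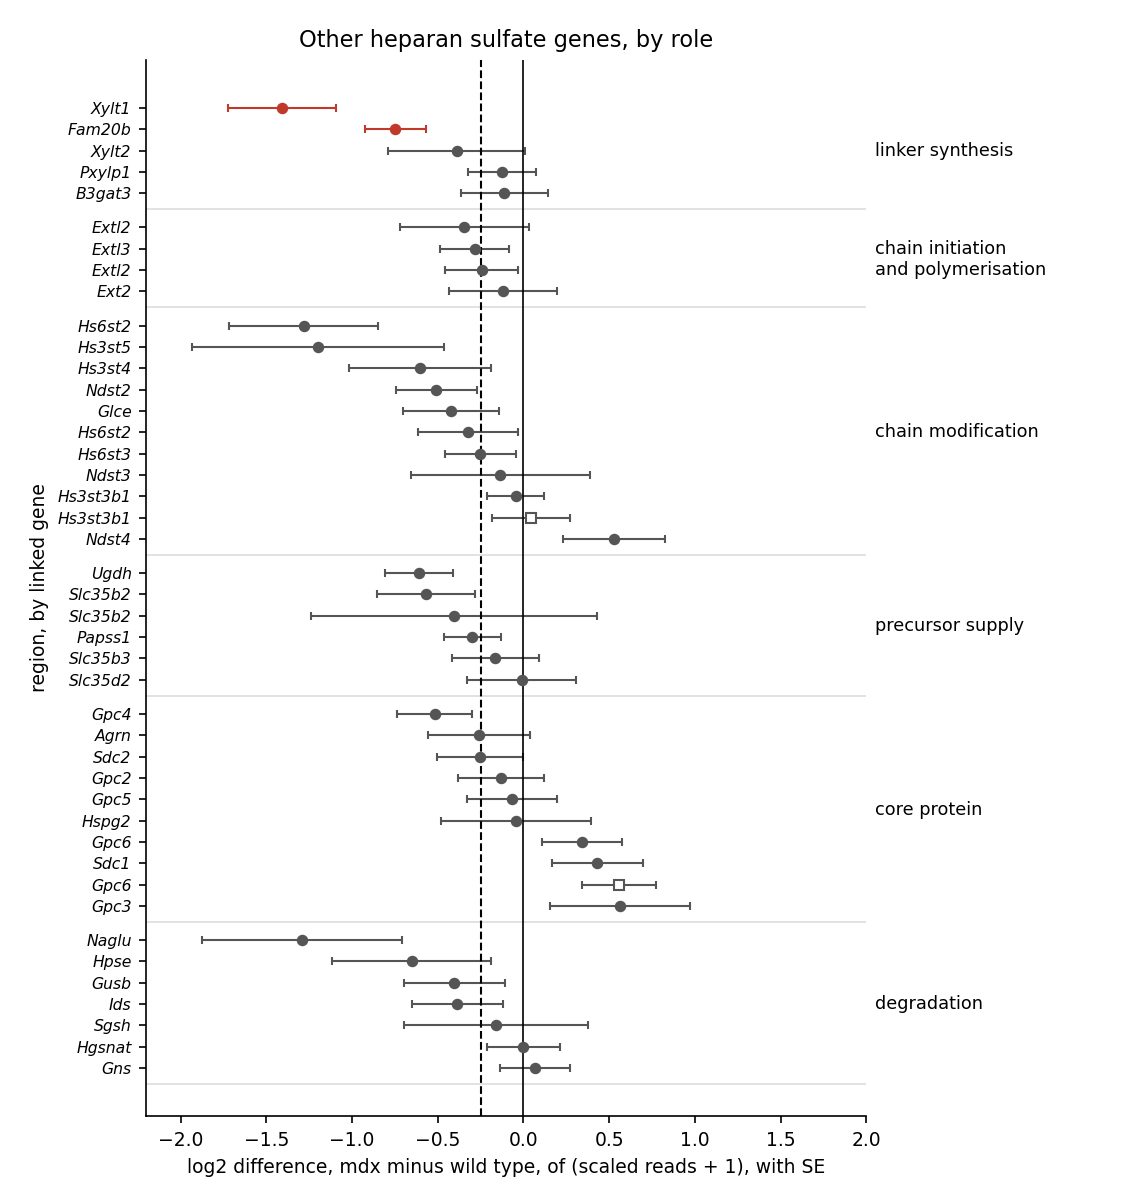
Log2 difference, mdx minus wild type, with bars of 1 SE (horizontal axis), of the 43 regions linked to other heparan sulfate genes (vertical axis, grouped by role), circles for promoters and open squares for distal regions, with a solid line at 0 and a dashed line at the promoter median of -0.25. The 2 regions past the threshold, Xylt1 at -1.41 and Fam20b at -0.75, are red and both belong to linker synthesis.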

How the data were processed

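ATAC-seq libraries of 2 mdx and 2 wild type samples were analysed from 1 deposited table. The submitters' processing notes list Trimmomatic 0.33, STAR 2.5.3a, Picard 2.9.0, MACS2 2.1.0, DESeq, DESeq2 and build mm10. The sources used here do not give their roles, duplicate handling, the Tn5 offset, any pooling before region calling, or whether starts count from 0 or 1.

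The deposited value is handled as a score: the authors multiplied reads per region by 1 factor per library and rounded. This was read from the values: in 3 libraries, factors of 1.382, 1.1619 and 1.2216 predict 111, 56 and 73 whole numbers up to 400 that never occur, and 0 values fall on them. For wild type replicate 2 the factor, 0.492, is an estimate. The deposited distance to the gene start (bp) was used as given. A deposited column with the fraction of a region in the gene body was left unused.

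Regions that reached 10 in 2 or more libraries (33161) entered limma 3.58.1 in R 4.3.3 as log2(value + 1), with group as sole term, an intensity trend and Benjamini-Hochberg adjustment over them. Log2 differences of low regions are understated. The procedure was tested on simulated data. Members and lists were chosen with earlier results of these data known. Named are all member regions, each other heparan sulfate region that passed, the 3 with the smallest p in each direction that did not, and, of unlinked regions, the one that passed and the 2 with the next smallest p; the regions of 3-O-sulfotransferases, of Sdc3, Sdc4 and Ndst1, further regions of Ext1, Sulf1, Gpc3 and Gpc6, and those at the starts of genes without a linked row were added after their values were seen. Symbols were matched to RefSeq (GRCm38.p6). Columns of no listed sample numbered 0. Alternatives covered scaling, filter, pseudocount, test, promoter window, autosomes, replicate block and leaving out each library.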

Additional observations from a re-analysis of the deposited data

How the results depend on the processing

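Both directions together, 1387 regions passed, 1095 higher and 292 lower (78.9% higher). The total was 4687 with distal medians set equal (3465 lower, 26.1% higher), 2245 after cyclic loess (1704 higher, 541 lower) and 458 with no filter (404 and 54). With promoter medians set equal 1821 were higher and 159 lower (92.0% higher). Lower calls alone numbered 725 with a mean value of at least 50, 190 and 485 with pseudocounts of 0.1 and 5, and 444 with voom on recovered reads. The median over all regions, -0.01, became -0.35 with distal and 0.19 with promoter medians set equal.

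Over the 12 alternatives that kept all libraries, the log2 difference of the Hs3st3a1 promoter ran from -2.05 to -1.51. The members were chosen with this difference known, so this range, and the side of the threshold of any member region, is a description. With distal medians set equal 2 member regions were past it, and the members' promoter median became -0.67. The other heparan sulfate genes gave 2 calls as reported, 1 with promoter medians set equal, 8 with distal medians set equal, 0 with no filter and 4 with a mean value of at least 50. The Ext1 region was the 1 unlinked call, and 0 were called with promoter medians set equal, no filter, a mean value of at least 50 (where the region is not tested) or a pseudocount of 0.1. A 2 kb window left 2 promoter calls.

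The replicate numbers are shared by the groups, but with 2 pairs nothing shows that they pair the libraries: the differences of replicate 1 and 2 in the groups correlated at -0.109 over regions. The replicate block gave 2761 calls (2108 higher, 653 lower). A crossed replicate block, added after seeing the data, gave 5461 calls (3394 and 2067), with 2 among members, 6 among other genes and 2 among unlinked regions.

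Leaving out any 1 library leaves 1 in its group, assumed to vary like the other group. Those fits called 0 regions of 33161, from 0 to 0 in every count above, so they decide nothing about a single call. The members' promoter median ran from -0.45 to -0.28 in them, and Hs3st3a1 from -2.14 to -1.28. Gpc1 turned to 0.02 without wild type replicate 1 and the distal Hs6st1 region to 0.27 without mdx replicate 1. Depth limits the low regions: Hs3st3a1 rests on 34 to 309 reads a library and the Ext1 region on 1 to 85.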
